A study of Mus musculus with 11 samples.

Results

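The ligands and receptors of the transforming growth factor beta (TGF-beta) and bone morphogenetic protein (BMP) family were followed across 3 populations of splenic CD4+ T cells. The genes were the ligands Tgfb1, Tgfb3, Bmp5 and Bmp7, the type I receptors Tgfbr1 and Acvrl1, the type II receptors Tgfbr2 and Bmpr2, and the co-receptor Tgfbr3. All 9 were found on the array through the RefSeq transcript in the probe set name, among 909 genes named in this way and 1246 probe sets in all. Where a gene had several probe sets, which applied to Tgfbr2 alone, the brightest was taken and the other is given beside it.

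TGF-beta and BMP ligands are secreted dimers. A dimer brings type II and type I receptor kinases together, the type II kinase activates the type I kinase, and the type I kinase phosphorylates SMAD proteins that enter the nucleus. In CD4+ T cells TGF-beta restrains proliferation and effector cytokines, and it supports the development and maintenance of regulatory T cells (Treg). BMP ligands use the same scheme with other receptors.

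The cells came from spleens of female C57BL/6 mice and were sorted by flow cytometry. Treg samples were CD4+CD25+ and CD45RBlow (n = 3, replicates 1, 2 and 4). The 2 other populations were CD4+CD25- cells of naive mice aged 4 to 6 weeks, split into CD45RBlow cells (n = 4), which the labels describe as activated or memory cells, and CD45RBhigh cells (n = 4), described as naive. The labels give no age for the Treg samples, so age and population cannot be told apart in the comparisons with them, and they do not say whether the replicates came from separate animals or pools. The p-values therefore measure only the spread between these samples. Each sample was hybridised to 1 custom Affymetrix glycan gene chip, and every level below is a log2 expression value made with Robust Multichip Average (RMA), so a difference of 1 is a doubling. The number of arrays limits the precision.

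The array medians lay between 4.85 and 4.94. Il2ra, the gene of CD25, read 9.84 ± 0.17 (SD, n = 3) in Treg, 6.17 ± 0.36 (SD, n = 4) in CD45RBlow and 4.07 ± 0.27 (SD, n = 4) in CD45RBhigh cells. Treg cells, sorted as CD25+, were highest. The CD25- populations also differed (2.10 higher in CD45RBlow, limma adjusted p = 1.28e-05), an order that the CD25 gate does not set. Of the 8 listed T cell markers only Cd2 was measured, at 11.69 to 12.39 over all arrays, so neither CD4 nor CD3 could be checked. Replicates 1 and 2 lay apart from replicates 3 and 4 within populations: a fit with terms for population and replicate set called 257 probe sets (20.6%) for the set. Arrays with the same replicate number deviated together from their population means, and values with the number as a block are given for the 9 genes where they changed a call. Brightness differs between probe sets for reasons other than RNA amount, so no gene's level is set against another's. Probe sets of the myeloid markers, which define cells outside the sort, read up to 5.19, and a level in that range does not by itself show a transcript.

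Across the 9 genes the receptors changed in opposite directions in Treg cells. Tgfbr3, Acvrl1 and Tgfbr2 fell, and Tgfbr1 and Bmpr2 rose, against each CD25- population. Of the ligands, Bmp7 was high in both CD45RBlow populations (Treg and CD25-), and Tgfb3 was high in CD25- CD45RBlow cells and low in the other 2 populations. Tgfb1 differed more between replicate sets than between populations.

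In limma with Benjamini-Hochberg adjustment over all probe sets, 7 of the 9 genes differed between Treg and CD45RBhigh cells, 3 higher and 4 lower in Treg, where 18.9% of all probe sets did (10.3% higher and 8.59% lower). With the replicate number as a block all 9 did, 4 higher and 5 lower, where 26.5% of probe sets did (12.1% higher and 14.4% lower). With the number as a random block 7 were called, as without a block, and with the replicate set as a term 8. Between Treg and CD45RBlow cells 6 of 9 differed, 2 higher and 4 lower, where 12.5% of probe sets did (6.74% higher and 5.78% lower), and with the block 6 again, where 19.7% did (8.99% higher and 10.7% lower). Between CD45RBlow and CD45RBhigh cells 5 of 9 differed, 2 higher and 3 lower in CD45RBlow, where 12.6% did (7.62% higher and 4.98% lower), and with the block 5 again, where 21.7% did (10% higher and 11.7% lower). The populations did not overlap at 7, 6 and 7 genes in these comparisons, where 25%, 21.3% and 17.8% of all probe sets did not overlap. The median size of the log2 difference over the 9 genes was 0.89, 0.71 and 0.23, against 0.11, 0.10 and 0.12 over all probe sets. The array medians of 4.85 to 4.94 lay within the range of the myeloid marker probe sets, which most of the 9 genes exceeded. The shares and sizes over all probe sets therefore include many probe sets that may carry weak signal. The genes were chosen with earlier results of these data known and the comparisons share arrays, so the counts describe the 9 genes and are not 3 independent results.

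**Figure D1:**
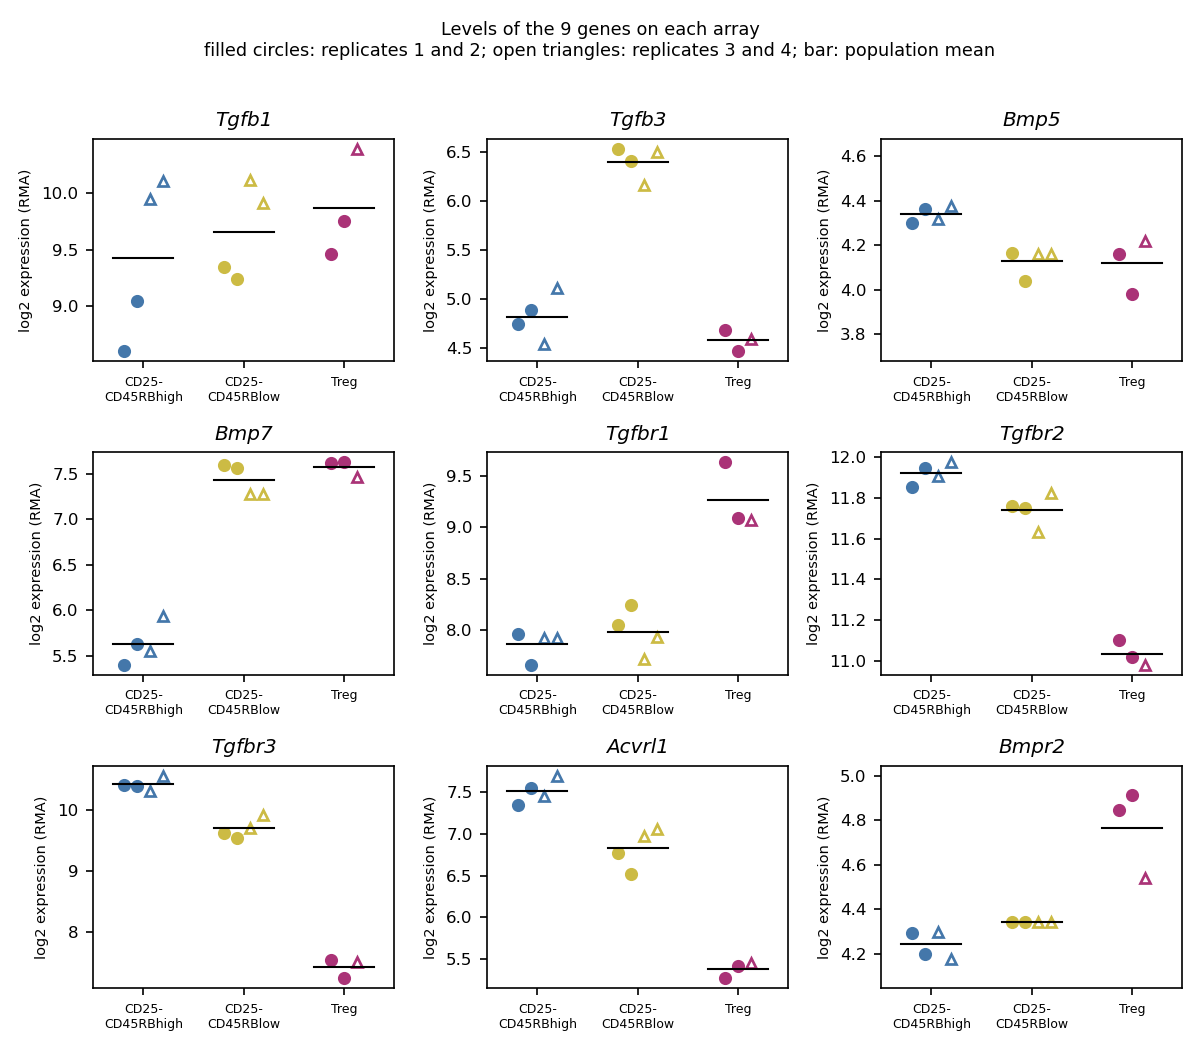
Log2 expression (RMA, vertical axes, each spanning at least 1 unit) of the 9 genes on each of 11 arrays, by population on the horizontal axes. Filled circles are replicates 1 and 2, open triangles replicates 3 and 4, and bars population means. Tgfbr3 and Acvrl1 step down from CD45RBhigh over CD45RBlow to Treg arrays, Tgfb3 is high on the CD45RBlow arrays (6.16 to 6.54), and the Tgfb1 triangles lie above the circles in each population.

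**Figure D2:**
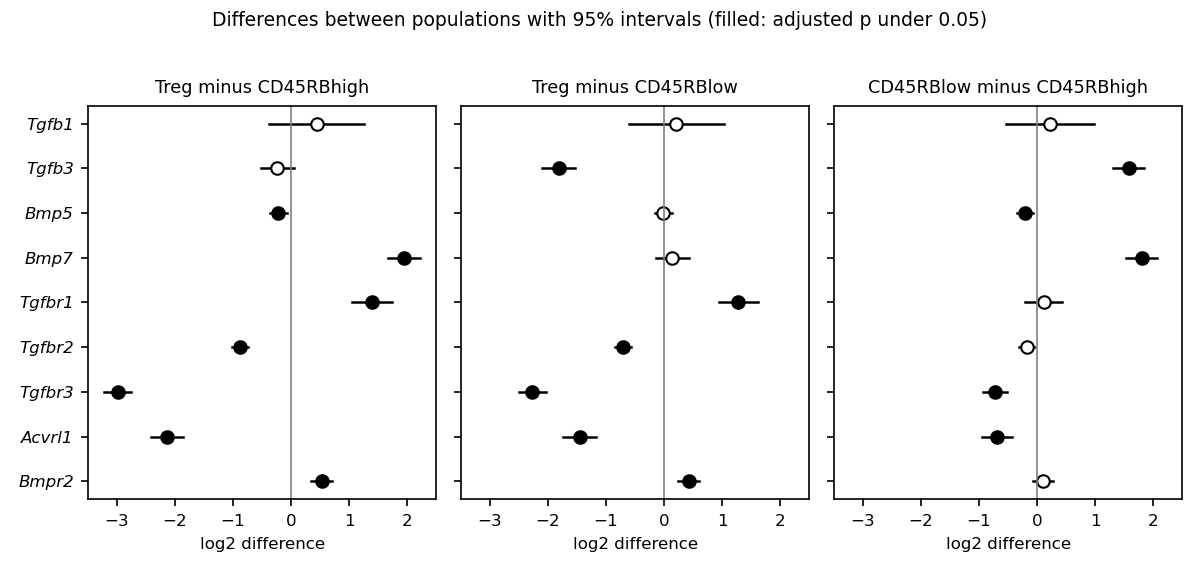
Log2 differences between populations for the 9 genes from the limma fit of all 11 arrays. Points are estimates, lines 95% intervals, and filled points have an adjusted p under 0.05. The widest intervals are those of Tgfb1, which run from -0.38 to 1.26 for Treg minus CD45RBhigh.

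The receptor pair for TGF-beta itself moved apart. Tgfbr2, the type II kinase that binds TGF-beta first, read 11.10, 11.02 and 10.98 in Treg replicates 1, 2 and 4. It read 11.76, 11.75, 11.64 and 11.82 in CD45RBlow replicates 1 to 4, and 11.86, 11.95, 11.91 and 11.98 in CD45RBhigh replicates 1 to 4. All Treg arrays were below all CD25- arrays. Tgfbr2 was 1.85-fold lower in Treg than in CD45RBhigh cells (log2 difference -0.89, SE 0.06, limma adjusted p = 1.19e-06) and 1.63-fold lower than in CD45RBlow cells (-0.71, SE 0.06, limma adjusted p = 1.75e-05). In sorted bulk samples such as these, fewer cells that carry a transcript and less of it per cell cannot be told apart. The step from CD45RBhigh to CD45RBlow was small and did not pass (-0.18, 95% interval -0.31 to -0.05, limma adjusted p = 0.0703), although the arrays did not overlap. It passed with the replicate number as a random block (limma adjusted p = 0.0427), but not as a fixed block (0.0778) or with the replicate set as a term (0.0593).

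The second Tgfbr2 probe set, named for transcript NM_029575 where the brighter one is named for NM_009371, moved the same way. It read 6.01, 6.40 and 5.77 in Treg replicates 1, 2 and 4, 6.85 to 7.24 in CD45RBlow and 7.20 to 7.84 in CD45RBhigh cells. Again all Treg arrays were lowest. The difference was -1.31 (SE 0.18, limma adjusted p = 0.000286) from CD45RBhigh and -1.04 (SE 0.18, limma adjusted p = 0.00249) from CD45RBlow cells. Both probe sets of the gene thus fell in Treg cells, and whether the 2 transcripts changed by different amounts was not tested.

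Tgfbr1 encodes ALK5, the type I kinase that Tgfbr2 activates. It read 9.63, 9.09 and 9.07 in Treg replicates 1, 2 and 4, and 8.05, 8.24, 7.71 and 7.93 in CD45RBlow replicates 1 to 4. In CD45RBhigh replicates 1 to 4 it read 7.96, 7.66, 7.92 and 7.92. The Treg arrays were all higher and the CD25- populations overlapped. Tgfbr1 was 2.63-fold higher in Treg than in CD45RBhigh cells (log2 difference 1.40, SE 0.15, limma adjusted p = 4.77e-05) and 2.43-fold higher than in CD45RBlow cells (1.28, SE 0.15, limma adjusted p = 0.000164). Between the CD25- populations the difference was 0.12 (95% interval -0.20 to 0.43, limma adjusted p = 0.599). Of 8 listed B cell markers 3 were measured, and their mean level ran from 5.91 to 6.01 on Treg, 5.64 to 5.88 on CD45RBlow and 5.61 to 5.77 on CD45RBhigh arrays. Cd72 was higher in Treg cells by 0.54 and 0.85 against CD45RBhigh and CD45RBlow cells (limma adjusted p = 0.0173 and 0.00154), Cd22 was highest in CD45RBlow cells, and Fcer2a read 3.23 to 3.35 as population means. The call of Cd72 against CD45RBhigh cells ended in 1 of the 11 fits that left out 1 array (adjusted p = 0.0815). The part of B cells in the Tgfbr1 difference was not tested.

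Because these 2 genes encode the kinases of 1 receptor complex and moved in opposite directions, the 250 bases upstream of their annotated starts are shown, 5′ to 3′ on the gene's strand, from RefSeq's table of mouse promoters (GRCm38.p6). The Tgfbr1 stretch is chr4:47352972-47353221 on the plus strand and the Tgfbr2 stretch chr9:116175364-116175613 on the minus strand. Capitals mark matches on either strand to the GC box GGGCGG, the CCAAT box, the short SMAD-binding core CAGAC and the TATA box TATAAA, and no matches overlap in these stretches.
Tgfbr1: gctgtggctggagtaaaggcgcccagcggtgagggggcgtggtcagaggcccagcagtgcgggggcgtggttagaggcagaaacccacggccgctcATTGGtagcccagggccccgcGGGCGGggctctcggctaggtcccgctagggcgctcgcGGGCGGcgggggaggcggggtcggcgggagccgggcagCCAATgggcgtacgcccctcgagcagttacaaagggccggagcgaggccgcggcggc
Tgfbr2: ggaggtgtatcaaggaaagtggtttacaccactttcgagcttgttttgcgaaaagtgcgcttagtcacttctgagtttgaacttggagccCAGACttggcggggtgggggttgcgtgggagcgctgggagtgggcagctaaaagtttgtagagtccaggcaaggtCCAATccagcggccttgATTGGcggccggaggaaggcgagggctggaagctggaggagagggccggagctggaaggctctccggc
The Tgfbr1 stretch holds 2 matches to GGGCGG and 2 to CCAAT, and its GC content is 74.8%. The Tgfbr2 stretch holds 2 matches to CCAAT and 1 to CAGAC, with a GC content of 58.4%. Neither holds TATAAA. Of 32851 promoter stretches of this length in the table, 32.7% hold GGGCGG, 33.8% CCAAT, 42.2% CAGAC and 12.4% TATAAA, and the median GC content is 52.4%. Matches to letters this short are common, and they describe the sequence without showing that a factor binds. Of the 9 genes 5 matched the table by symbol: Tgfbr1, Tgfbr2, Tgfb1, Bmpr2 and Bmp5.

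Tgfbr3, or betaglycan, is a co-receptor that carries glycosaminoglycan chains and presents TGF-beta to Tgfbr2. It had the largest difference of the 9 genes between Treg and each CD25- population. It read 7.54, 7.24 and 7.50 in Treg replicates 1, 2 and 4, 9.62, 9.54, 9.70 and 9.91 in CD45RBlow replicates 1 to 4, and 10.40, 10.39, 10.31 and 10.56 in CD45RBhigh replicates 1 to 4. No 2 populations overlapped. Tgfbr3 was 7.93-fold lower in Treg than in CD45RBhigh cells (log2 difference -2.99, SE 0.10, limma adjusted p = 8.22e-09), and 4.81-fold lower than in CD45RBlow cells (-2.27, SE 0.10, limma adjusted p = 1.12e-07). CD45RBlow cells lay between, 1.65-fold below CD45RBhigh cells (-0.72, SE 0.10, limma adjusted p = 0.000344). The order CD45RBhigh, CD45RBlow, Treg therefore had both of its steps past the threshold.

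Of 10 listed markers of NK and CD8 T cells 4 were measured. Limma called 3 of the 4 lower in Treg than in CD45RBhigh cells, 1 lower in Treg than in CD45RBlow cells and 1 lower in CD45RBlow than in CD45RBhigh cells, with 0 higher (3, 2 and 2 lower with the replicate block). Of all probe sets 8.59%, 5.78% and 4.98% were called lower in these comparisons (14.4%, 10.7% and 11.7% with the block). The mean level of the 4 markers ran from 3.17 to 3.38 on Treg, 4.46 to 4.77 on CD45RBlow and 4.69 to 5.04 on CD45RBhigh arrays. Klrd1, the CD94 receptor chain, was called in each comparison, at 3.93 ± 0.47 (SD, n = 3), 8.28 ± 0.22 (SD, n = 4) and 9.22 ± 0.21 (SD, n = 4). The other 3, Klra3, Klra8 and Klrk1, had population means from 2.61 to 4.27, in the range of myeloid marker probe sets. The differences in the mean level of the 4 markers were mostly those of Klrd1. Klrk1 passed in no comparison (limma adjusted p 0.674, 0.142 and 0.236). Klra3 and Klra8 were lower in Treg than in CD45RBhigh cells (limma adjusted p = 0.0425 and 0.0357), and each call ended in 7 of the 11 fits that left out 1 array (adjusted p up to 0.106 and 0.125). The part of such cells in the Tgfbr3, Acvrl1 and Tgfbr2 differences was not tested.

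Acvrl1 encodes ALK1, a type I receptor for certain BMP ligands and TGF-beta that is best known from endothelial cells. It had the same order. It read 5.27, 5.42 and 5.45 in Treg replicates 1, 2 and 4, 6.77, 6.52, 6.98 and 7.06 in CD45RBlow replicates 1 to 4, and 7.35, 7.55, 7.46 and 7.70 in CD45RBhigh replicates 1 to 4. No 2 populations overlapped here either. Acvrl1 was 4.40-fold lower in Treg than in CD45RBhigh cells (log2 difference -2.14, SE 0.13, limma adjusted p = 3.23e-07), 2.74-fold lower than in CD45RBlow cells (-1.45, SE 0.13, limma adjusted p = 1.56e-05), and 1.60-fold lower in CD45RBlow than in CD45RBhigh cells (-0.68, SE 0.12, limma adjusted p = 0.00211). Its probe set carries the suffix s, so its signal may not be specific to 1 transcript. The Treg levels lay little above the 5.19 that myeloid marker probe sets reached, so the fold changes against Treg cells may be understated.

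Endothelial markers were read beside Acvrl1. Of 13 listed, 5 were measured, and their mean level ran from 5.91 to 6.29 on Treg, 5.97 to 6.19 on CD45RBlow and 6.21 to 6.37 on CD45RBhigh arrays. Sele, the endothelial selectin, read 2.74 ± 0.09 (SD, n = 3) in Treg and 2.74 ± 0.15 (SD, n = 4) in CD45RBhigh cells, and Emcn, a sialomucin of endothelium, 3.87 ± 0.15 (SD, n = 3) and 3.95 ± 0.09 (SD, n = 4). Neither passed in any comparison (limma adjusted p at least 0.723 for Sele and 0.650 for Emcn). Pecam1 and Icam2, which lymphocytes also express, were lower in Treg than in CD45RBhigh cells by 0.64 (limma adjusted p = 0.00553) and 0.72 (limma adjusted p = 0.0159), and the Icam2 call ended without Treg replicate 1 or 2 (highest adjusted p 0.0802). Selp, a selectin of platelets and endothelium, was higher in Treg than in CD45RBhigh cells by 0.37 (limma adjusted p = 0.0152), which no longer passed once Treg replicate 4 was left out (limma adjusted p = 0.0572), and than in CD45RBlow cells by 0.48 (limma adjusted p = 0.00490), which passed with each array left out in turn. Pecam1 was also lower in CD45RBlow than in CD45RBhigh cells (-0.50, limma adjusted p = 0.0204), which no longer passed when CD45RBhigh replicate 1 or 4 or CD45RBlow replicate 2 was left out (adjusted p up to 0.0658). With the replicate block Icam2 passed in the other 2 comparisons too (adjusted p = 0.0212 for Treg against CD45RBlow and 0.00378 for CD45RBlow against CD45RBhigh). The part of endothelial cells in the Acvrl1 difference was not tested beyond these values.

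Bmpr2, the type II receptor for BMP ligands, differed less. It read 4.84, 4.91 and 4.54 in Treg replicates 1, 2 and 4, and 4.30, 4.20, 4.30 and 4.18 in CD45RBhigh replicates 1 to 4. All 4 CD45RBlow arrays held the same value, 4.34, as happened within some population at 17 probe sets. They add no spread to the pooled fit, so the SEs and p-values of Bmpr2 may be too small. The SD was 0.20 in Treg (n = 3) and 0.06 in CD45RBhigh cells (n = 4). Fitted on those 2 populations alone, the Treg minus CD45RBhigh difference had an SE of 0.10 (limma adjusted p = 0.00829). The Treg arrays were highest, with replicate 4 nearest to the others. Bmpr2 was 1.44-fold higher in Treg than in CD45RBhigh cells (log2 difference 0.52, SE 0.08, limma adjusted p = 0.000824) and 1.34-fold higher than in CD45RBlow cells (0.42, SE 0.08, limma adjusted p = 0.00561). Within replicates 3 and 4, which hold 1 Treg array, the differences were 0.30 (limma adjusted p = 0.0686) and 0.20 (limma adjusted p = 0.270). The CD25- populations differed by 0.10 (95% interval -0.07 to 0.27, limma adjusted p = 0.409). These levels lie in the range that myeloid marker probe sets reach in the same cells, so the fold changes may understate any change in transcript.

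Among the ligands, Tgfb1 is the isoform that T cells, Treg cells included, are best known to make. It read 9.46, 9.76 and 10.39 in Treg replicates 1, 2 and 4, 9.35, 9.24, 10.12 and 9.91 in CD45RBlow replicates 1 to 4, and 8.61, 9.05, 9.95 and 10.10 in CD45RBhigh replicates 1 to 4. In each population the arrays of replicates 3 and 4 were above those of replicates 1 and 2, and all 3 populations overlapped. In the fit with both terms, replicates 3 and 4 were 1.88-fold above replicates 1 and 2 (log2 difference 0.91, SE 0.11, limma adjusted p = 0.000295). Among the 9 genes this was the only one for which the replicate sets differed past the threshold, in this fit and at the brightest probe set of each gene. No label says what the sets mark.

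Without a term for the replicates, Tgfb1 in Treg cells exceeded CD45RBhigh cells by 0.44 (95% interval -0.38 to 1.26, limma adjusted p = 0.516). With the replicate number as a block the difference was 0.61 (SE 0.14, limma adjusted p = 0.00619), or 1.52-fold; with the number as a random block it was 0.50 and did not pass (limma adjusted p = 0.272). Treg was higher within each number, by 0.85 in replicate 1, 0.70 in replicate 2 and 0.29 in replicate 4. Within replicates 1 and 2 it was 0.78 (limma adjusted p = 0.00635), and within replicates 3 and 4, with 1 Treg array, it was 0.37 (limma adjusted p = 0.266). Against CD45RBlow cells the blocked difference was 0.38 (95% interval 0.08 to 0.68, limma adjusted p = 0.0826), with Treg higher in 3 of 3 numbers. Between CD45RBlow and CD45RBhigh cells it was 0.23 (95% interval -0.04 to 0.50, limma adjusted p = 0.199).

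**Figure D3:**
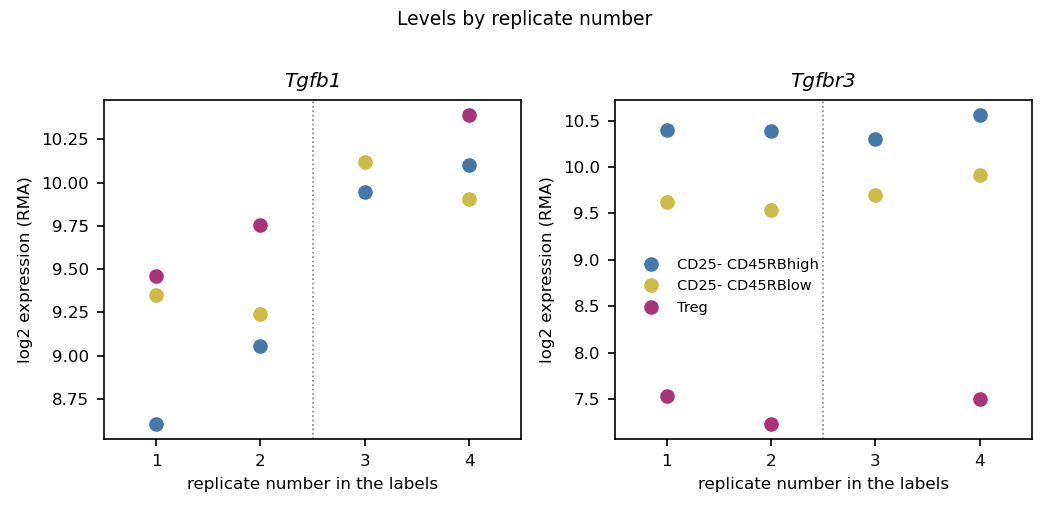
Log2 expression (RMA, vertical axes) of Tgfb1 and Tgfbr3 by the replicate number in the labels (horizontal axes), coloured by population, with a dotted line between replicates 1 and 2 and replicates 3 and 4. For Tgfb1 the arrays right of the line (9.91 to 10.39) lie above those left of it (8.61 to 9.76), whereas for Tgfbr3 the populations keep the same order at every number, Treg having no replicate 3.

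Tgfb3, a second TGF-beta isoform, marked the CD25- CD45RBlow population. It read 6.54, 6.41, 6.16 and 6.50 in CD45RBlow replicates 1 to 4, 4.75, 4.89, 4.55 and 5.11 in CD45RBhigh replicates 1 to 4, and 4.69, 4.47 and 4.60 in Treg replicates 1, 2 and 4. All CD45RBlow arrays lay above all others. Tgfb3 was 2.99-fold higher in CD45RBlow than in CD45RBhigh cells (log2 difference 1.58, SE 0.12, limma adjusted p = 6.99e-06) and 3.52-fold lower in Treg than in CD45RBlow cells (-1.82, SE 0.13, limma adjusted p = 3.31e-06). Treg and CD45RBhigh arrays overlapped (-0.24, 95% interval -0.53 to 0.05, limma adjusted p = 0.269). With the replicate block that difference was -0.32 (limma adjusted p = 0.0202), with Treg lower by 0.06, 0.42 and 0.51 in replicates 1, 2 and 4. It did not pass with the number as a random block (-0.27, limma adjusted p = 0.115) or with the replicate set as a term (-0.25, limma adjusted p = 0.212). Levels in those 2 populations lie in the range of myeloid marker probe sets.

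Bmp7, a BMP ligand known from kidney and bone development, was high in both CD45RBlow populations. It read 7.62, 7.63 and 7.47 in Treg replicates 1, 2 and 4, 7.60, 7.56, 7.28 and 7.28 in CD45RBlow replicates 1 to 4, and 5.40, 5.63, 5.55 and 5.94 in CD45RBhigh replicates 1 to 4. CD45RBhigh arrays lay below all others, and the CD45RBlow and Treg arrays overlapped. The CD45RBhigh levels began little above the 5.19 that myeloid marker probe sets reached, so weak signal may limit them. Bmp7 was 3.85-fold higher in Treg than in CD45RBhigh cells (log2 difference 1.94, SE 0.13, limma adjusted p = 6.43e-07) and 3.48-fold higher in CD45RBlow than in CD45RBhigh cells (1.80, SE 0.12, limma adjusted p = 2.69e-06). Treg and CD45RBlow cells differed by 0.14 (95% interval -0.14 to 0.42, limma adjusted p = 0.562), so a difference up to that upper bound could not be told from none.

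Bmp5, another BMP ligand, read 4.16, 3.98 and 4.22 in Treg replicates 1, 2 and 4, 4.16, 4.04, 4.16 and 4.16 in CD45RBlow replicates 1 to 4, and 4.30, 4.36, 4.32 and 4.38 in CD45RBhigh replicates 1 to 4. CD45RBhigh arrays were highest, by a margin smaller than for any other called gene. The log2 difference was -0.22 (SE 0.07, limma adjusted p = 0.0433) for Treg and -0.21 (SE 0.06, limma adjusted p = 0.0497) for CD45RBlow against CD45RBhigh cells. Either call ended in 9 of 11 fits that each left out 1 array, with an adjusted p up to 0.177 and 0.138. For Treg these were the fits without any CD45RBhigh array, without CD45RBlow replicate 1, 3 or 4, and without Treg replicate 1 or 2, and for CD45RBlow those without any CD25- array or Treg replicate 1. The levels lie in the range of myeloid marker probe sets, and the probe set carries the suffix s.

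The genes whose pattern over the 11 arrays was most like that of each called gene were named from 75 other genes whose population means spanned at least 1. The correlations are over arrays that share 3 populations and 1 normalization, and describe them only. Tgfbr3 lay closest to the lectin-like receptor gene Klrd1 (Pearson r = 0.987), to Ugcg, which starts glycosphingolipid synthesis (0.984), and to Igfbp4, which binds insulin-like growth factors (0.976). Acvrl1 lay closest to the GalNAc-transferase gene Galnt10 (0.986), Igfbp4 (0.985) and Ugcg (0.968), and Tgfbr2 to Klrd1 (0.983), Galnt10 (0.966) and St8sia1, a ganglioside sialyltransferase (0.966). These 3 receptors, which fell in Treg cells, shared neighbours in pairs, but no neighbour was common to all 3. Some sharing follows from drawing on 75 genes picked for a wide span.

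Of those that rose, Tgfbr1 lay closest to Sdc4, a cell-surface heparan sulfate proteoglycan (0.962), to the chemokine Cxcl2 (0.960) and to Cd74, the invariant chain (0.953). Bmpr2 lay closest to Cxcl2 (0.978), to the cytokine Csf1 (0.952) and to Sdc4 (0.943). Bmp7 followed Il12rb1, an interleukin-12 receptor chain (0.987), the secreted glycoprotein gene Angptl2 (0.983) and the chemokine receptor Cxcr5 (0.980), which read 5.84 in CD45RBhigh, 7.94 in CD45RBlow and 8.18 in Treg cells. Tgfb3 followed the chemokine Ccl5 (0.969), the cytokine Il4 (0.965) and the C-type lectin Cd93 (0.952), each highest in CD45RBlow cells. Bmp5 correlated less closely, with the sialyltransferase St8sia6 (0.854) first, then Ovgp1 (0.818) and Ccr7 (0.791).

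Of 30 other ligands listed 21 were measured, and limma called 0 higher and 1 lower in Treg than in CD45RBhigh cells, 2 and 0 against CD45RBlow cells, and 0 between CD45RBlow and CD45RBhigh cells, where 3, 2 and 2 had an unadjusted p under 0.05 and the blocked fit called 1, 1 and 0. Their median log2 differences were -0.05, 0.03 and -0.09, against -0.04, 0.04 and -0.08 over all probe sets. The called genes were Bmp6 (-0.29, limma adjusted p = 0.0440) against CD45RBhigh cells, and Bmp8a (0.22, limma adjusted p = 0.0316) and Bmp2 (0.34, limma adjusted p = 0.0484) against CD45RBlow cells. Bmp6 and Bmp8a were not called with the block (adjusted p = 0.0686 and 0.0635), where Bmp2 also passed against CD45RBhigh cells (adjusted p = 0.0417). Leaving out 1 array ended these calls in 7, 4 and 8 of 11 fits, and their population means ran from 3.39 to 4.21. Of the 21 ligands only Bmp1, Bmp8b, Gdf1, Gdf9 and Gdf11 had population means above 5.19, the highest value of the myeloid marker probe sets. For the others a small difference does not by itself show a transcript that stayed the same.

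Of 17 other receptors and co-receptors 5 were measured: Acvr1, Acvr2a, Acvr2b, Bmpr1a and Bmpr1b. Acvr1, the type I receptor ALK2, read 3.71 ± 0.34 (SD, n = 3) in Treg and 3.11 ± 0.20 (SD, n = 4) in CD45RBhigh cells (0.60, limma adjusted p = 0.0197), which no longer passed when CD45RBhigh replicate 4, Treg replicate 1 or Treg replicate 2 was left out (limma adjusted p up to 0.101). Limma called 0 of these receptors between Treg and CD45RBlow cells and 0 between CD45RBlow and CD45RBhigh cells, with 1 and 1 at an unadjusted p under 0.05 and 1 and 1 called with the block (Bmpr1a, adjusted p = 0.0159, and Acvr1, adjusted p = 0.0366). The list's median differences were 0.19, 0.29 and -0.13 in the 3 comparisons. Only Acvr2a had population means above the range of myeloid marker probe sets.

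Of 37 extracellular binders and activators 8 were measured. Igf2r, the mannose 6-phosphate receptor, which binds the latent TGF-beta precursor, was 1.69-fold higher in Treg than in CD45RBhigh cells (log2 difference 0.76, SE 0.09, limma adjusted p = 8.26e-05) and 1.87-fold higher than in CD45RBlow cells (0.90, SE 0.09, limma adjusted p = 3.85e-05). Fmod, a small proteoglycan that binds TGF-beta, was lower in CD45RBlow than in CD45RBhigh cells (-0.30, limma adjusted p = 0.0496), a call that ended in 10 of the 11 fits that left out 1 array, all but the fit without CD45RBhigh replicate 4. The list's median differences were 0.03, 0.06 and -0.02. Only Igf2r had population means above the range of myeloid marker probe sets. Of 17 genes of intracellular signalling, SMADs among them, 0 were named on the chip, so signalling itself was not measured.

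Of 18 genes listed as responsive to TGF-beta in T cells 10 were measured, a list that holds the sort gene Il2ra and was drawn up with earlier results known. In Treg against CD45RBhigh cells 6 rose and 1 fell, against CD45RBlow cells 5 rose and 5 fell, and in CD45RBlow against CD45RBhigh cells 9 rose and 1 fell. Of all probe sets 18.9%, 12.5% and 12.6% were called. The list's medians were 2.26, 0.26 and 2.06, against -0.04, 0.04 and -0.08 over all probe sets. The list mixes genes that TGF-beta raises with effector cytokine genes (Il2, Ifng and Il4, each highest in CD45RBlow cells), so the directions do not measure a response. Itgae, the CD103 integrin chain that TGF-beta is known to raise, read 9.69 ± 0.47 (SD, n = 3) in Treg, 7.17 ± 0.55 (SD, n = 4) in CD45RBlow and 5.22 ± 0.13 (SD, n = 4) in CD45RBhigh cells. It was 5.73-fold higher in Treg than in CD45RBlow cells (limma adjusted p = 8.27e-05) and 3.86-fold higher in CD45RBlow than in CD45RBhigh cells (limma adjusted p = 0.000324). Il10, an immunosuppressive cytokine, and Ccr8, a chemokine receptor, had the same order, with Treg over CD45RBlow differences of 2.52 (SE 0.26, limma adjusted p = 5.28e-05) and 1.51 (SE 0.11, limma adjusted p = 4.07e-06). Il7r, the interleukin-7 receptor, fell along the order of Tgfbr3, at 11.53, 11.03 and 10.25 in CD45RBhigh, CD45RBlow and Treg cells. The chemokine receptor gene Cxcr3 was highest in CD45RBlow cells, at 10.93 ± 0.16 (SD, n = 4), and was 2.90-fold lower in Treg cells (limma adjusted p = 2.77e-05), where it read 9.40, against 7.46 in CD45RBhigh cells.

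**Figure D4:**
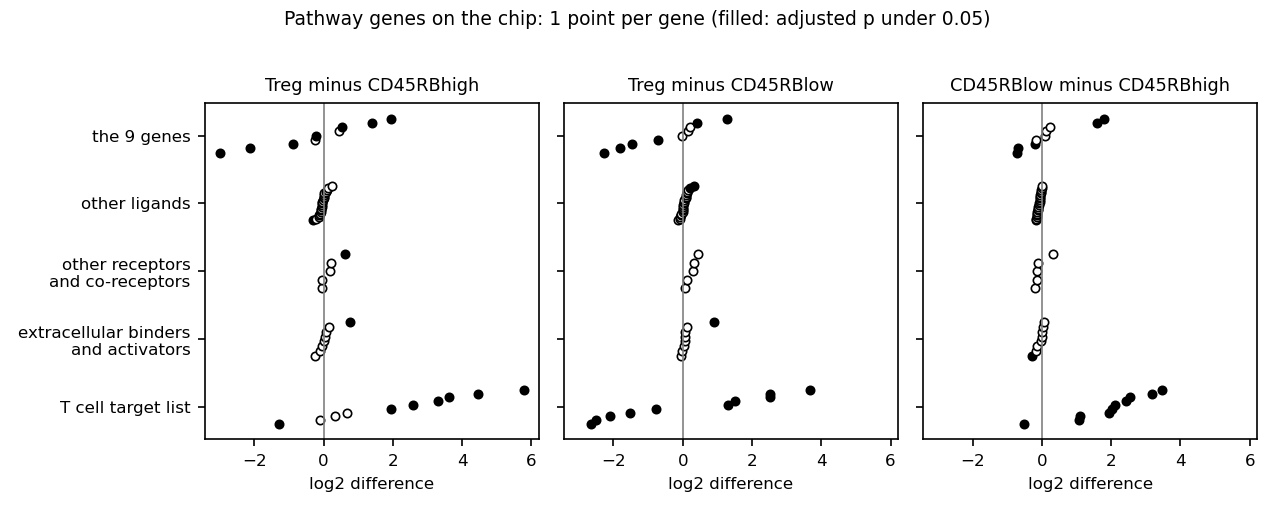
Log2 differences between populations (horizontal axes), 1 point per gene, for the 9 genes and for 4 lists of other pathway genes (vertical axis). Filled points have an adjusted p under 0.05 in limma. The 21 other ligands lie close to 0, and most of them read in the range of myeloid marker probe sets. The 10 genes of the T cell target list spread widely, in both directions for Treg minus CD45RBlow and mostly above 0 in the other comparisons.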

How the data were processed

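The authors deposited 1 log2 RMA value for each probe set and array (per the labels and the series text; version not given in the sources used here). They were used without further normalization or filter. Probe sets were named by RefSeq transcript through a GRCm38.p6 gene table (963 of 1246 named). Limma 3.58.1 (R 4.3.3) fitted a mean for each of the 3 populations over 11 arrays (empirical Bayes, two-sided tests, Benjamini-Hochberg over 1246 probe sets per comparison, threshold 0.05, intervals at 95%). This step was tested on simulated data with independent noise and no replicate effect. That test therefore does not cover error rates under the replicate sets seen in these arrays. The members and lists were chosen with earlier results of these data known. Genes named beyond the 9 were up to 6 called genes per list by smallest adjusted p, the 3 closest in pattern to each called gene, the sort check Il2ra and markers. The cytokine genes of the T cell target list were named as well. Cd44 and Ccr7, also checks of the sort, were 1.44 higher and 1.01 lower in Treg than in CD45RBhigh cells (limma adjusted p = 0.012 and 2.79e-05). The Cd44 call ended without Treg replicate 1 (limma adjusted p = 0.0596). Between Treg and CD45RBlow cells neither passed (-0.06 and -0.32, limma adjusted p = 0.943 and 0.0756). CD45RBlow minus CD45RBhigh differences were 1.50 and -0.69 (limma adjusted p = 0.0083 and 0.000511).

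Same-numbered arrays of different populations had deviations that correlated at 0.31 to 0.56 (10 pairs), above the 0.1 set as the threshold for pairing. The main fit nevertheless had no block, and the number was used as a block only in alternative fits, named as such where given. Arrays of another number in the same replicate set correlated at 0.20 to 0.58 (10 pairs). The median was 0.28 for these pairs and 0.46 for the same number. The ranges overlap, and whether pairing follows the number or the replicate set was not tested. Titles of same-numbered samples share an ending across populations, and no label says what the ending marks. The numbers come from the sample descriptions. Alternatives were blocks, scalings, a filter, other moderation, probe set means, replicate sets and leaving out arrays. Plots used matplotlib 3.10.9 (Python 3.11.15).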

Additional observations from a re-analysis of the deposited data

Results flagged for a closer look

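There were 20 groups of 4 arrays (10 probe sets in each CD25- population). Dixon's test of the lowest and highest array was applied to all but Bmpr2 in CD45RBlow cells, whose 4 values were equal. An array far from the others was found in 3 groups, where chance gives about 1 in 20. Bmp5 in CD45RBlow replicate 2 read 4.04, below 3 arrays at 4.16. Tgfbr1 in CD45RBhigh replicate 2 read 7.66, below 3 arrays at 7.92 to 7.96. The second Tgfbr2 probe set read 7.84 in the same CD45RBhigh replicate 2, above 3 arrays at 7.20 to 7.24, while the brighter Tgfbr2 probe set did not stand apart there.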

How the results depend on the processing

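Of the 20 differences of a member probe set that passed the threshold, 16 kept their direction and stayed past it under every alternative run; the exceptions were those of Bmp5 against CD45RBhigh cells and of Bmpr2 in Treg cells within replicates 3 and 4. The count of members called changed by less than 1.5 times under every alternative. Over all probe sets, the replicate block gave 245 calls for Treg against CD45RBlow in place of 156 and 271 for CD45RBlow against CD45RBhigh in place of 157, and the replicate set as a term gave 238 and 247. Leaving out 1 array gave 6 to 7, 6 and 4 to 5 members and 164 to 227, 110 to 162 and 113 to 151 probe sets in the 3 comparisons. The replicate block changed the calls of Tgfb1 and Tgfb3 in Treg against CD45RBhigh cells and of no other member. No called difference reversed. Differences that were not called changed sign as follows, and the cause was not tested. Bmp5 in Treg against CD45RBlow was 0.00090 with the replicate set as a term, 0.059 within replicates 3 and 4, 0.0010 without CD45RBlow replicate 1 and 0.060 without Treg replicate 2, in a range from -0.0588 over the fits that left out 1 array. Tgfb1 was -0.0464 in Treg against CD45RBlow without Treg replicate 4 (up to 0.418 without Treg replicate 1), and in CD45RBlow against CD45RBhigh it was -0.011 within replicates 3 and 4 and -0.0451 without CD45RBhigh replicate 1 (up to 0.453 without CD45RBhigh replicate 4). Tgfbr1 in CD45RBlow against CD45RBhigh was -0.10 within replicates 3 and 4. Other scalings moved the median of all probe sets by at most 0.08. Weak signal over background limits Bmp5, Bmpr2 and Acvr1, and Tgfb3 in Treg and CD45RBhigh cells. Among the other called genes, Bmp2, Bmp6, Bmp8a, Bmpr1a, Fmod, Klra3, Klra8 and Selp also had population means in the myeloid marker range. Weak signal may also limit Acvrl1 in Treg and Bmp7 in CD45RBhigh cells, which read little above that range. The 3 or 4 arrays per population limit every interval.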
